A study of Drosophila melanogaster with 4 samples.

Results

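The gene ken (ken and barbie, FlyBase identifier FBgn0011236) was followed through 4 ovary libraries of Drosophila melanogaster. It was chosen by its identifier, as 1 of the 2860 genes listed in the deposited tables, with its high m5C level and its values in these libraries already known. Its levels and ranks are therefore given as a description. The ovaries came from NSUN2 knockout flies and from wild-type flies, both labelled with the strain W1118. The labels name no NSUN2 allele and give no age or number of flies. For each genotype, footprints and poly(A) mRNA were sequenced from 1 library each. The 4 groups thus hold 1 library apiece, and no difference between genotypes below has a replicate check or a p-value.

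Ken is a transcriptional repressor with a BTB domain and zinc fingers, related to the mammalian repressor BCL6. It binds DNA sites that overlap those of STAT92E, the transcription factor of the fly JAK/STAT pathway, and represses part of that pathway's target genes. In the fly ovary, JAK/STAT signalling patterns the follicle cells around the germline and recruits the migrating border cells, and in the testis ken acts in the somatic cyst stem cells. NSUN2 is an RNA methyltransferase that turns cytosine into 5-methylcytosine (m5C), chiefly in tRNAs and also in mRNAs. Footprints are short pieces of mRNA that survive nuclease because a ribosome sat on them, so a footprint value follows how much of a message is occupied by ribosomes.

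The ken message carried a listed m5C level of 0.975, as a fraction. This was the highest level of the gene as the authors' tables give it, and it ranked 7th of the 2860 listed genes (lowest 0.1, median 0.269, highest 0.991). A level of at least 0.6 was listed for 505 genes, ken among them, and the nearest levels on either side of that limit were 0.601 and 0.599. The tables do not state where in ken the methylated cytosine lies, in which sample it was measured or at what coverage, and the level therefore has no interval. Genes with no listed m5C level were not analysed here.

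The values are per gene length, so genes can be ordered within a library. Whole reads behind the values were recovered for 91.4% of the genes with footprints in both libraries and for 82.3% of the genes in mRNA, as the smallest whole numbers that give the deposited values. The depth of the knockout library relative to wild type came out as 2.01 in footprints and 2.58 in mRNA. Whole ratios alone leave this number open by a small whole factor. That factor was chosen so that multiples of small primes, 2 and 3 among them, were about as frequent in both libraries. Whole ratios were found for more genes at a depth ratio of 1.01 in footprints, 2657 against 2622 at the one used. The same held at 1.29 in mRNA, with 2469 against 2375. With the ratio used, the footprint read number of a gene, after common factors, was even in 32.2% of genes in the knockout and in 34.6% in wild type, and in mRNA in 33.6% in the knockout and 31.6% in wild type. At a ratio of 1.01 in footprints, it was even in 17.4% of genes in the knockout and 66.3% in wild type. At 0.861 in mRNA, where wild type would be the deeper library, it was a multiple of 3 in 9.40% of genes in the knockout and 72.0% in wild type. At depth ratios 2 or 3 times larger or smaller, the fold of ken is the same, and its counting interval widens at most to 3.27 to 6.15 in footprints and 1.14 to 1.34 in mRNA. At the ratios used, and over the genes with recovered reads, the knockout and wild-type footprint libraries held at least 1301418 and 688040 reads, and the knockout and wild-type mRNA libraries at least 5801418 and 2277878. Of the 2860 identifiers, 18 could be paired with a symbol. None of these belonged to the lists of ovary, JAK/STAT or BTB genes drawn up for comparison, so those lists, the ovary markers and the level of the targeted gene were not examined here.

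The ken mRNA stayed in the middle of the listed genes in both genotypes, while its footprints were far lower in the knockout. In footprints, ken had a value of 7.36 in the knockout library, from 79 reads, against 33.0 in the wild-type library, from 176 reads. Counting intervals (95%, exact Poisson) were 5.83 to 9.18 in the knockout and 28.3 to 38.3 in wild type. At the depth of the wild-type library, the 79 knockout reads correspond to 39.3 reads. In mRNA, ken had a value of 26.8 in the knockout, from 2408 reads (25.8 to 27.9), against 33.1 in wild type, from 1153 reads (31.3 to 35.1). The intervals of the genotypes did not overlap in either assay. In how many of the other listed genes they lay apart was not counted, so nothing is read from this. In mRNA, 16.9% of all listed genes had a lower difference than ken. The intervals reflect the counting of reads alone. Without molecular identifiers several reads can stem from 1 molecule, and the spread between flies is unknown. In whole ovaries, fewer cells that express ken and less ken RNA per cell cannot be told apart.

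Set among the other genes of each library, the footprint value of ken was higher than that of 16.2% of the listed genes in the knockout and of 53.1% in wild type. The knockout value lay below the lower quartile of that library, 11.3, whereas the wild-type value lay just above the median of its own, 30.1. In mRNA, ken was higher than 39.3% of the listed genes in the knockout and 49.4% in wild type, with medians of 33.6 and 33.5. Its mRNA thus stood inside the middle range of genes in both genotypes.

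**Figure D1:**
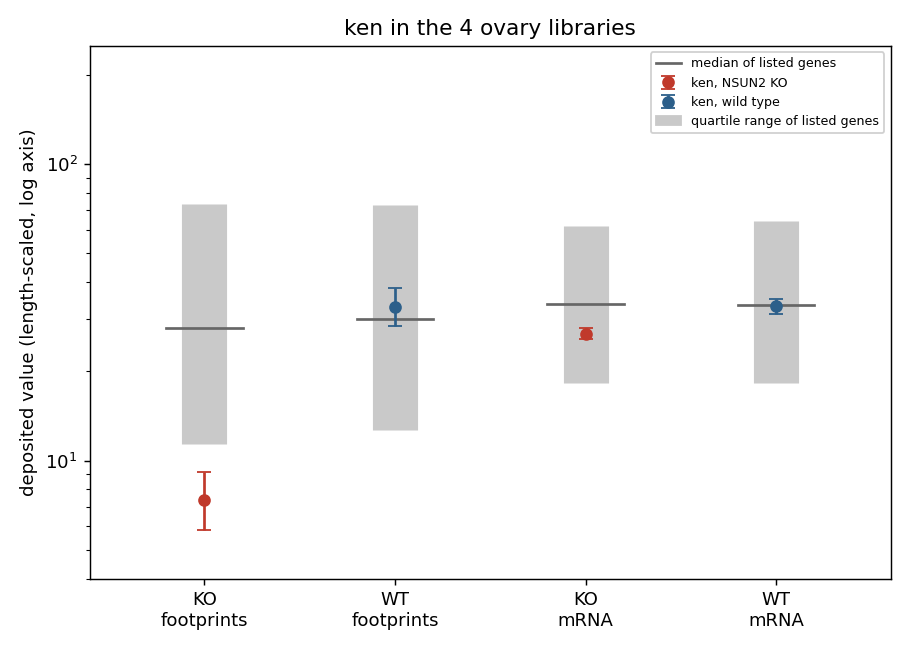
Deposited value of ken (points, with 95% exact Poisson counting intervals) in the knockout and wild-type footprint libraries and the knockout and wild-type mRNA libraries, on a log axis, with the quartile range (grey) and median (line) of the 2860 listed genes. The knockout footprint value of 7.36 is the only one of the 4 outside the grey range.

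Footprints of ken in the knockout were at 22.3% of the wild-type value (95% counting interval 16.9 to 29.2), which is 4.48-fold lower (3.42 to 5.92). On the log2(value + 0.1) scale used to order genes, the footprint difference of knockout over wild type was -2.15. Only 5 of the 2860 listed genes had a lower footprint difference, so that ken ranked 6th from the bottom. In the order of the other genes' values, the ends of its own counting interval, taken without the pseudocount, would place it 3rd and 19th. The median footprint difference of all listed genes was -0.06, and the lowest 5% lay at or below -1.03. On this scale, at least 2-fold lower footprints were found for 155 of the 2860 genes (5.42%), and at least 4-fold lower footprints for 9 (0.315%). This contrast was among the values by which ken was chosen, so nothing is read from its place among them.

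The 9 genes with at least 4-fold lower knockout footprints were unlike each other in mRNA. Their log2 mRNA differences ran from -4.31 to 0.95 with a median of -0.22, and 2 of the 9 were also at least 2-fold lower in mRNA. With ken, 4 of the 9 had an mRNA difference smaller than 0.5 on the log2 scale in either direction. Their m5C levels had a median of 0.302, and ken had the highest. Several of the 9 rested on few reads. The 4th and the 8th in the order had 5 and 3 footprint reads in the knockout, against 79 for ken.

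Among the 505 genes with an m5C level of at least 0.6, ken had the lowest footprint difference. It was the single one of these genes with footprints at least 4-fold lower (0.198%, against 0.315% of all listed genes). At least 2-fold lower were 36 (7.13%, against 5.42% of all listed genes). Ken was chosen with this value known, so nothing is read from its place. The median of the 505 genes was -0.10, and their lowest 5% lay at or below -1.23. The next gene in the order, FBgn0250789, stood at -1.99, and its footprint reads were not recovered. The third, FBgn0032814, stood at -1.96, from 8 footprint reads in the knockout and 17 in wild type. Its counting interval, taken without the pseudocount, was -3.52 to -0.81. The upper end of the counting interval of ken, -1.77 on the log2 scale, would place it 4th, so the order of the lowest few genes is not settled by these reads.

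The mRNA of ken in the knockout was at 80.9% of wild type (75.4 to 86.9), 1.24-fold lower (1.15 to 1.33). The log2 mRNA difference was -0.30, against a median of 0.00 over all listed genes and a lower quartile of -0.20. That ranked 483rd from the bottom of 2860 genes and 67th of the 505 genes with high m5C levels. At least 2-fold lower mRNA was found for 46 of the 2860 genes (1.61%) and at least 2-fold higher mRNA for 49 (1.71%), and ken was in neither group. The mRNA difference of ken was small beside its footprint difference, and 16.9% of all listed genes had a lower one.

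**Figure D2:**
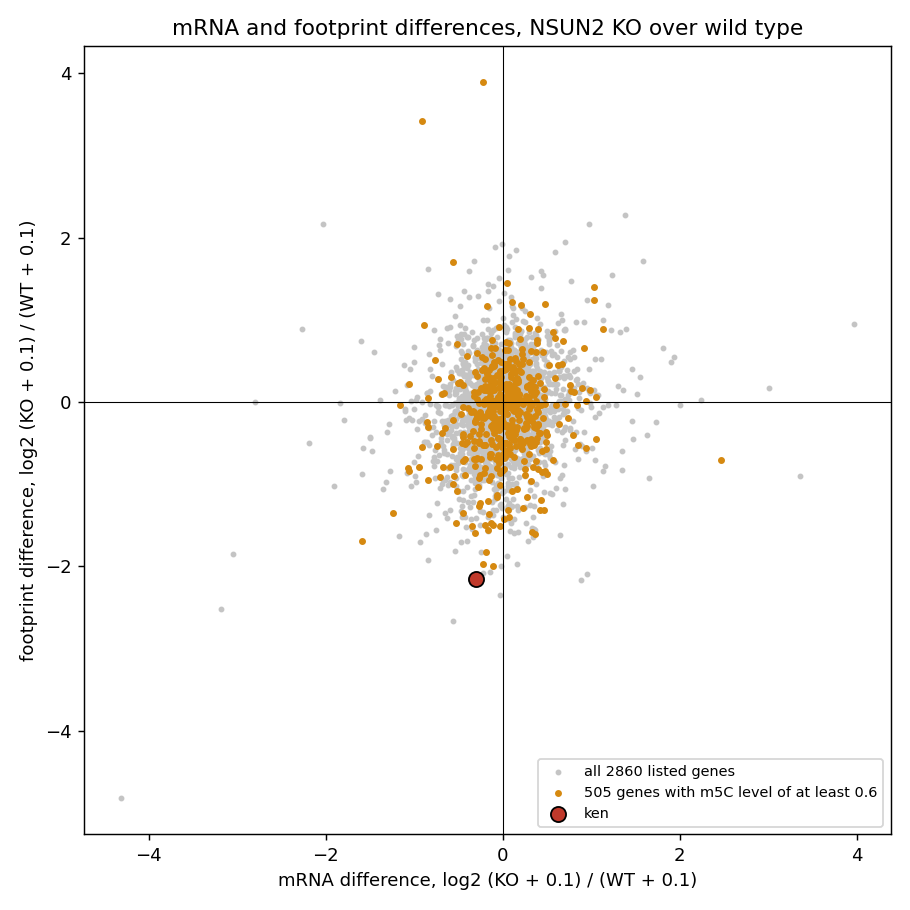
Difference of knockout over wild type in mRNA (horizontal) and in footprints (vertical), each as log2(value + 0.1), for all 2860 listed genes (grey), the 505 genes with an m5C level of at least 0.6 (orange) and ken (red). Ken lies at -0.30 in mRNA and -2.15 in footprints, below every orange point.

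Translation efficiency, the footprint value of a gene per its mRNA value, was 0.275 for ken in the knockout and 0.996 in wild type. In the knockout it was higher than that of 15.3% of the listed genes, and in wild type it was higher than that of 53.4%. The medians over the listed genes were 0.882 in the knockout and 0.898 in wild type. The ken message was therefore near the middle of the order in wild type and among its lower values in the knockout.

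The log2 difference in translation efficiency of ken was -1.84, with a counting interval of -2.26 to -1.46 taken without the pseudocount from the summed variances of the 4 read numbers. This is 3.63-fold lower (2.76 to 4.77). It ranked 35th from the bottom of the 2860 genes and 5th of the 505 with high m5C levels. At least 2-fold lower translation efficiency was found for 197 of the 2860 genes (6.89%) and for 45 of the 505 (8.91%). The median difference was -0.06 over all listed genes and -0.12 over the 505. Translation efficiency shares its libraries with the footprint and mRNA differences and is no separate measurement.

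**Figure D3:**
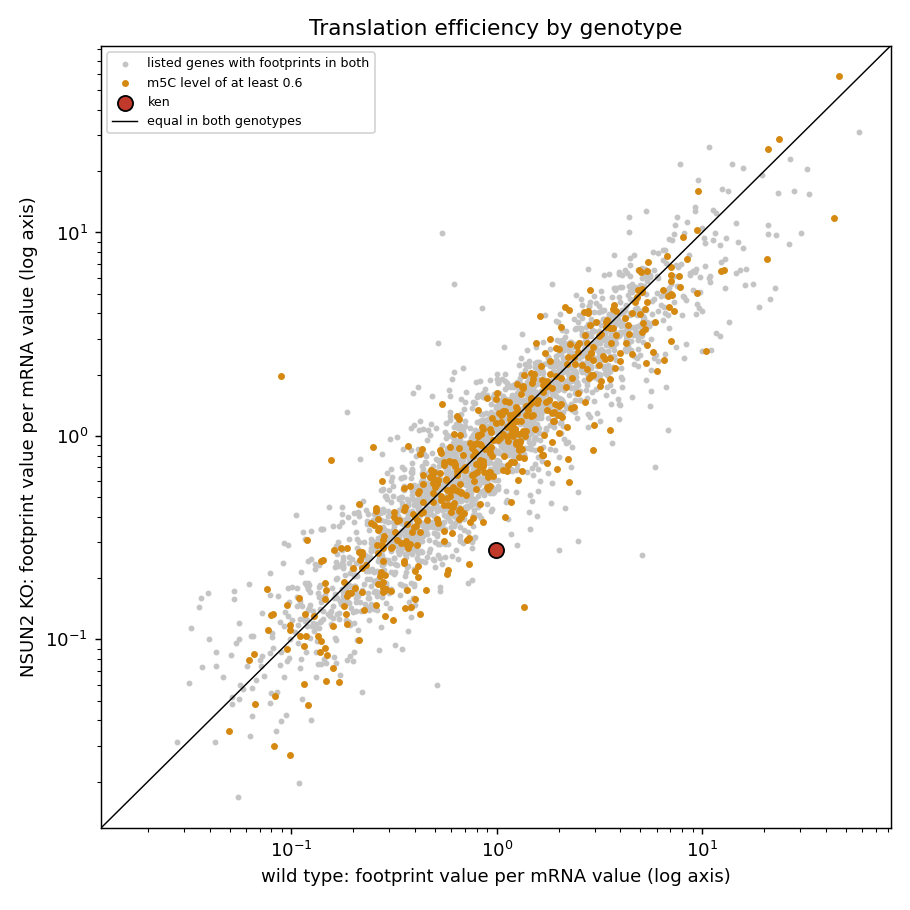
Footprint value per mRNA value in the knockout (vertical) and in wild type (horizontal), both on log axes, for the listed genes with footprints in both libraries (grey), those with an m5C level of at least 0.6 (orange) and ken (red), with a line where both genotypes are equal. Ken stands at 0.275 in the knockout and 0.996 in wild type, below the line.

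Genes with m5C levels close to that of ken differed among themselves in knockout footprints. The 5 genes whose m5C levels were nearest to that of ken, from 0.970 to 0.981, had log2 footprint differences from -1.15 to 0.18, and 3 of the 5 were below 0. One of the 5 was at least 2-fold lower in footprints, against 5.42% of all listed genes, a share that 5 genes are too few to set apart. FBgn0026751, the nearest of all, had footprint values of 75.5 in the knockout and 71.6 in wild type, and mRNA values of 24.1 in the knockout and 26.5 in wild type. Its footprint value was the higher one in the knockout, unlike that of ken.

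At m5C levels of 0.9 and above, 94 genes were listed, and their median log2 footprint difference was -0.08. Of these, 9 (9.57%) were at least 2-fold lower in footprints. Among the 1027 genes with levels from 0.1 to 0.2 the median was -0.02, and 54 (5.26%) were at least 2-fold lower. Shares rose from the group at 0.2 to 0.4 upward, and medians fell as far as the group at 0.6 to 0.9. Neither order held over all the levels. The 893 genes from 0.2 to 0.4 had a median of -0.06 with 4.59% at least 2-fold lower, the 435 from 0.4 to 0.6 had -0.10 with 5.52%, and the 411 from 0.6 to 0.9 had -0.11 with 6.57%. The median mRNA difference was 0.02 in the 94 genes and 0.01 in the 1027. In the group of 94, ken had the lowest footprint difference, the 3rd lowest translation efficiency difference and the 15th lowest mRNA difference. Edges of these groups were set with the values known, and neither the medians nor the shares were tested against each other.

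**Figure D4:**
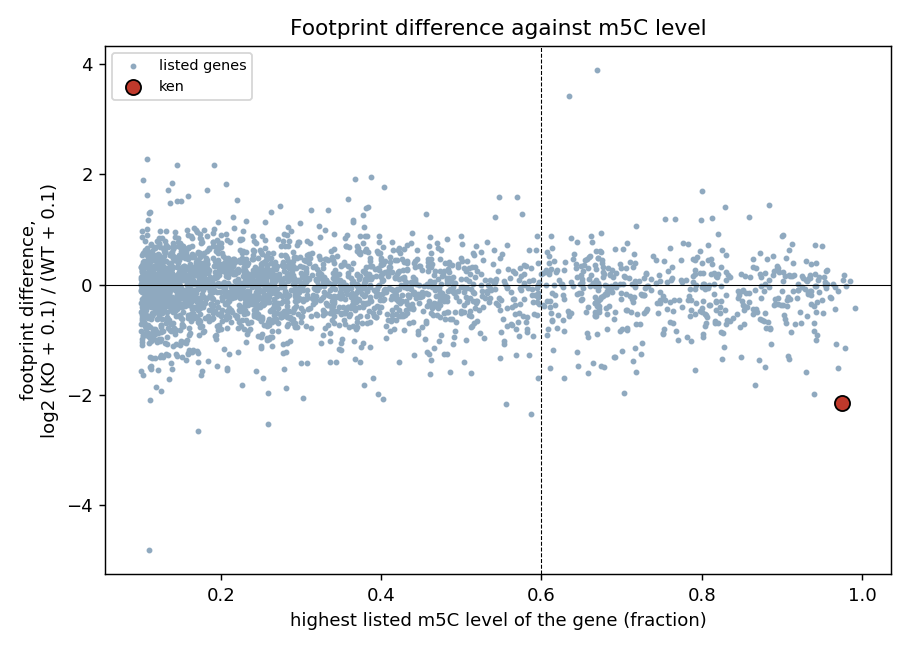
Footprint difference of knockout over wild type, as log2(value + 0.1), against the highest listed m5C level of each gene, for the 2860 listed genes (blue) and ken (red). The dashed line marks a level of 0.6, and to its right ken is the lowest point at -2.15.

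The genes whose differences were most like those of ken were sought among the 505, by the Euclidean distance over the log2 mRNA difference and the log2 footprint difference, thus over 2 comparisons of 1 library each. The 5 nearest lay at distances from 0.20 to 0.61, with log2 footprint differences from -1.99 to -1.56 and log2 mRNA differences from -0.31 to -0.11. These differences were the measure itself, so their likeness to those of ken was part of the choice. Levels of the 5 genes varied, with wild-type footprint values from 3.32 to 469 and wild-type mRNA values from 10.8 to 51.0. The nearest, FBgn0032814, had 8 footprint reads in the knockout and 17 in wild type, and FBgn0003082 had 18 in the knockout and 28 in wild type. FBgn0250789 had footprint values of 118 in the knockout and 469 in wild type, with mRNA values of 9.98 in the knockout and 10.8 in wild type. FBgn0046687, with an m5C level of 0.866, had footprint values of 6.002 in the knockout, from 42 reads, and 21.6 in wild type, from 75 reads. Its log2 footprint difference was -1.83 (-2.43 to -1.28), an interval that overlaps that of ken. Its mRNA values were 44.9 in the knockout and 51.0 in wild type.

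When likeness was measured over the levels in all 4 libraries instead, the 5 nearest genes lay at distances from 0.74 to 0.95 on the log2(value + 0.1) scale. Their m5C levels ran from 0.101 to 0.479, so none was among the 505. All 5 had lower footprints in the knockout, with values from 8.18 to 13.5 against 19.3 to 31.6 in wild type, and 4 of the 5 were at least 2-fold lower. Their log2 footprint differences, from -1.26 to -0.98, were smaller than that of ken. The likeness measure used the knockout footprint value itself, so low values there were part of the choice.

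Among the genes with a symbol are MED1, Asx and pps, which like ken act in transcription or chromatin. Of these 3, only pps had an m5C level of at least 0.6, at 0.743. Its footprint values were 26.3 in the knockout and 26.0 in wild type, a log2 difference of 0.02 (-0.14 to 0.18), and its log2 mRNA difference was 0.26 (0.17 to 0.35). MED1, which belongs to the Mediator complex of transcription initiation, had footprint values of 21.7 in the knockout and 26.0 in wild type, with a log2 difference of -0.26 (-0.46 to -0.06). Asx, a Polycomb-group gene, had 5.20 in the knockout and 7.09 in wild type, from 31 and 21 reads, with a log2 difference of -0.44 (-1.29 to 0.43). The log2 mRNA difference was 0.18 (-0.02 to 0.37) for MED1 and -0.38 (-0.48 to -0.29) for Asx. That of Asx was below the -0.30 of ken. The footprint intervals of all 3 began at -1.29 or higher, and that of ken ended at -1.77. That end would place ken 19th from the bottom of the 2860 listed genes, so nearly all of them lie above it. With ken chosen for known values, nothing is read from its distance to these 3.

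The length by which the authors' values were scaled was a by-product of the read recovery, and its unit is not stated in the files. For ken it was 601 in footprints and 3070 in mRNA, against medians of 578.5 and 2298 among the recovered lengths. Like the reads, these lengths are the smallest whole numbers that serve, so they are lower limits. FBgn0036258, for example, came out at 539 in footprints and only 131 in mRNA. From the shortest, ken ranked 1354th of 2610 recovered lengths in footprints and 1520th of 2353 in mRNA. Since lengths of other genes can be too short, both ranks may be too high, and the place of ken in length is not settled. If the unit is the codon in footprints and the nucleotide in mRNA, and both ken lengths are complete, 1803 of the 3070 nucleotides are coding. A gene's length is the same in both genotypes and does not enter the differences above.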

How the data were processed

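Per the labels' protocols, ovary lysates were digested with micrococcal nuclease, the monosome peak of a gradient was collected, and rRNA-depleted fragments of 28 to 30 nt were cloned. This nuclease prefers some bases when it cuts, and only single ribosomes enter, both of which can shift footprint values between genes. The mRNA libraries came from poly(A) RNA with a directional kit. Per the submitters' processing notes, cutadapt, TopHat2, HTSeq and the dm3 build were used; no source used here gives versions, the annotation or the rule that chose the genes. Each expression column holds a deposited signal that the authors scaled to depth and gene length, without naming the scaling. The deposited m5C level is a fraction, identical in all 4 tables.

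The design assumed that reads might be recoverable. For footprints and for mRNA, knockout and wild-type values of a gene stand in a ratio of whole reads times the depth ratio (relative tolerance 1.5e-09, at most 2000 reads in footprints and 5000 in mRNA). The depth ratio was fixed by requiring that reads of both libraries be multiples of small primes equally often. Reads shared by a common factor are resolved only where length demands it. At a given depth ratio, reads and lengths are thus lower limits and intervals at their widest. Differences are log2(value + 0.1) of knockout minus wild type, which understates differences of low genes. Intervals are exact Clopper-Pearson for the share of reads, and exact Poisson for single values. All intervals are taken without the pseudocount, while log2 differences and their order include it. Of 102 symbols in the comparison lists, 0 could be matched to an identifier. Named genes were those nearest to ken in m5C level, in differences and in levels, and its neighbours in rank; unnamed identifiers were mostly given as ranges. The gene and the lists were chosen with earlier results of these data known. Python 3.11.15, numpy 2.4.6, scipy 1.17.1 and pandas 2.3.3 were used.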

Additional observations from a re-analysis of the deposited data

How the results depend on the processing

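No paired analysis was possible because the 4 groups hold 1 library each. Without a pseudocount, with a pseudocount of 1, and with each library divided by its sum, its upper quartile or its median-of-ratios size factor, the log2 differences of ken ran from -0.32 to -0.26 in mRNA, from -2.21 to -2.02 in footprints and from -1.90 to -1.73 in translation efficiency. Of 41 alternatives for the differences and ranks of ken, 38 stayed within what its counting interval allows. This tally measures little. The largest shift by a rescaling was -0.08 on the log2 scale, in footprints, against a ken interval of -2.57 to -1.77. Ranks in sets of other sizes were also held against the range for the set of the main result. Among genes with a mean value of at least 10 in each assay, 2142 in number, ken ranked 2nd from the bottom in footprints and 310th in mRNA, and among the 222 genes with an m5C level of at least 0.8 it ranked 36th in mRNA; fewer genes entered. With an m5C level of at least 0.5, ken ranked 3rd of 669 in footprints rather than 1st of 505. Another alternative, chosen after seeing the data, left out genes with a mean below 50 recovered footprint reads. Genes whose footprint reads were not recovered were kept, and ken ranked 4th of 2447 genes. Counting genes at least 1.5-fold instead of 2-fold apart gave 164 lower and 171 higher in mRNA, 435 and 254 in footprints, and 521 and 314 in translation efficiency, since smaller differences are admitted. The footprint values of ken rest on 79 and 176 reads, which limits their precision, and the spread between flies is unknown.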
